A study of Sus scrofa with 4 samples.

Results

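STARD4 and the cholesterol synthesis genes HMGCS1, SQLE, LSS, FDFT1, IDI1, INSIG1 and SREBF2 were followed through RNA sequencing of porcine (Sus scrofa) embryos collected with 4 cells. The set was put together with earlier results of these data in view, STARD4 for its high level in one group. The genes were found by an exact match to the gene name column of the deposited table. Of the 8 genes, 7 had a row and IDI1, an isomerase of the pathway, was not analysed here. The 7 genes had 10 transcript rows among 35395 in the table, and they are 7 of 25560 gene names in all.

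The control embryos are labelled Control for genotype and treatment, and the other embryos are labelled TFAP2C KD, with an injection of siRNA (small interfering RNA, which degrades a chosen mRNA). TFAP2C, or AP-2 gamma, is a transcription factor of the early embryo. A treatment note on every library, the controls included, gives cytoplasmic injection of siRNA, and what the controls received is not stated there. Each group had 2 libraries, made from total RNA with a SMARTer kit, and neither the number of embryos per library nor their origin from separate pools is given. With nothing to show separate pools, p-values here reflect the scatter among 4 libraries, and that scatter may be technical.

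Animal cells make cholesterol from acetyl-CoA, first by the mevalonate steps, in which HMGCS1 acts, and then through squalene and lanosterol. When sterols in the endoplasmic reticulum are low, the escort protein SCAP carries SREBP-2, the product of SREBF2, to the Golgi, where proteases release its transcription factor part. INSIG proteins hold SCAP back when sterols are plentiful. SREBP-2 activates genes of synthesis and uptake, and in other mammalian cells STARD4, a small cytosolic protein that moves cholesterol between membranes, is one of its targets. Early embryos divide without growing and carry much of their membrane lipid over from the oocyte.

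The targeted gene could not be used to check the labels. In the table, coverage (mean read depth per base) divided by FPKM (a level corrected for the length of the transcript and the size of the library) was 6.69, 7.03, 6.07 and 8.83 in control-labelled libraries 1 and 2 and KD-labelled libraries 1 and 2. The targeted gene TFAP2C stood under those columns at 14.7, 7.78, 0.448 and 3.11 FPKM, but its own ratios were 6.07, 8.83, 6.69 and 7.03, those of the opposite group. Since its values may sit under the wrong columns, every direction here is KD-labelled against control-labelled libraries. The 32 values of at least 0.05 FPKM in the rows of STARD4 and its set carried their own libraries' ratios, within a relative deviation of 5.38e-06. The 13 protein genes of the mitochondrial genome took 18.5% and 24.1% of summed FPKM in the control-labelled libraries and 39.9% and 26.9% in the KD-labelled libraries. Oocyte and early embryo markers were uneven in level, from ZAR1 at 0.853 to 1.51 FPKM to BTG4 at 1501 to 2392 FPKM. All 14 were tested, and their summed level was 6681 and 6404 FPKM in the control-labelled libraries and 3307 and 4536 in the KD-labelled libraries. Of these, 4 fell (WEE2, MOS, H1FOO and ZAR1L, limma with Benjamini-Hochberg adjusted p = 0.0179 to 0.0318), where 1.46% of all tested genes fell. BTG4, DPPA3, ZP4 and ZAR1 overlapped between the groups. Cumulus, granulosa and theca markers had rows for 18 of 21 genes and summed to 20.4 and 14.5 FPKM in the control-labelled libraries and 21.4 and 15.1 in the KD-labelled libraries.

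STARD4 (gene ID 100233203, chromosome 2, 116235821 to 116257143, Sscrofa11.1) was under 1 FPKM in the control-labelled libraries and abundant in the KD-labelled libraries. Its level was 0.0765 and 0.687 FPKM in control-labelled libraries 1 and 2. In KD-labelled libraries 1 and 2 it was 56.8 and 28.8 FPKM. The groups stood far apart, and the lower KD-labelled library was 42.0 times the higher control-labelled library. The means were 0.382 ± 0.432 FPKM and 42.8 ± 19.8 FPKM (SD, n = 2 each), a ratio of 112. In log2(FPKM + 1) the difference was 4.95 (SE 0.43), and the added 1 makes it smaller than the ratio for a gene that starts so low. These values chose the gene, so they are given as a description with no test.

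Coverage is FPKM times 1 ratio per library, so it repeats these values on another scale and is no separate support. Mean coverage of the STARD4 transcript was 0.512 and 4.83 reads per base in the control-labelled libraries and 345 and 255 in the KD-labelled libraries. In control-labelled library 1 STARD4 lay above 15.6% of the genes with a value over 0, and in control-labelled library 2 above 42.2%. In KD-labelled libraries 1 and 2 it lay above 94.6% and 89.8%. All of this signal lies on 1 predicted transcript, the only row for STARD4, while RefSeq lists 2 transcripts for the gene. In bulk RNA from whole embryos, a difference in the number of cells that express STARD4 and one in RNA per cell cannot be told apart.

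**Figure D1:**
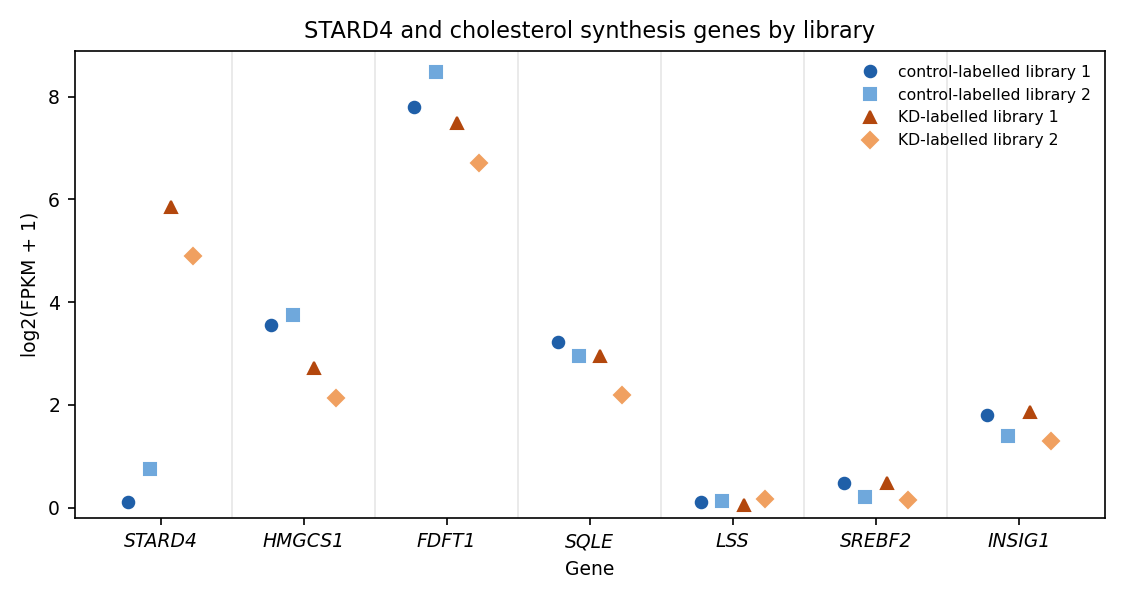
Level of 7 genes in each library as log2(FPKM + 1), with 1 point per library and no averaging. STARD4 is at 0.106 and 0.754 in the control-labelled libraries and at 5.85 and 4.90 in the KD-labelled libraries. HMGCS1 and FDFT1 are lower in both KD-labelled libraries, and SQLE, LSS, SREBF2 and INSIG1 overlap between the groups.

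HMGCS1 (chromosome 16, 27936225 to 27957261) makes HMG-CoA, an early intermediate of the mevalonate steps. It stood at 10.7 and 12.4 FPKM in the control-labelled libraries and at 5.62 and 3.36 FPKM in the KD-labelled libraries. Both KD-labelled libraries were below both control-labelled libraries, the opposite order to STARD4. The difference was -1.22 (SE 0.32) in log2(FPKM + 1), from a mean of 11.6 ± 1.19 to 4.49 ± 1.60 FPKM (SD, n = 2 each).

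FDFT1 (chromosome 14, 14976259 to 15010701) encodes squalene synthase, which commits the pathway to sterols. It was the most abundant gene of the set in every library, at 223 and 354 FPKM in the control-labelled libraries and 179 and 104 FPKM in the KD-labelled libraries. Its groups also did not overlap, but the control-labelled libraries lay further from each other than the nearest libraries of different groups did. The difference was -1.03 (SE 0.39) in log2(FPKM + 1).

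SQLE (chromosome 4, 14669789 to 14700152) encodes squalene epoxidase, the enzyme that adds oxygen to squalene. Its level was 8.34 and 6.76 FPKM in the control-labelled libraries and 6.77 and 3.58 FPKM in the KD-labelled libraries. Labelled control 2 and KD-labelled library 1 were level with each other, so the groups touched. The difference was -0.51 (SE 0.36) in log2(FPKM + 1), close to the spread between libraries. LSS, lanosterol synthase, closes the ring system of the sterols. It was at 0.0834 and 0.0914 FPKM in the control-labelled libraries and at 0.0294 and 0.116 FPKM in the KD-labelled libraries, too low to test. Its only row is a transcript that RefSeq classes as non-coding, so the level of its coding transcript was not analysed here.

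The regulators of the set were low and alike in range. SREBF2 (chromosome 5, 6719484 to 6784724) stood at 0.386 and 0.158 FPKM in the control-labelled libraries and at 0.397 and 0.1002 FPKM in the KD-labelled libraries, and was too low to test. Its row is 1 of 3 RefSeq transcripts. INSIG1 (chromosome 18, 2885494 to 2898758), a protein that retains SCAP and is itself a target of SREBP-2 in other cells, stood at 2.48 and 1.64 FPKM in the control-labelled libraries. In the KD-labelled libraries it stood at 2.61 and 1.46 FPKM. The values of the groups interleaved for both genes, and the INSIG1 difference was -0.02 (SE 0.34) in log2(FPKM + 1).

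By level in FPKM, which is scaled for transcript length, the control-labelled libraries were ordered FDFT1, HMGCS1, SQLE and INSIG1, with no overlap between neighbours. STARD4, SREBF2 and LSS followed, and their ranges overlapped in part, since STARD4 spanned 0.0765 to 0.687 FPKM. In the KD-labelled libraries STARD4 was second after FDFT1 and its range was clear of all the others. HMGCS1 and SQLE overlapped there, as did SREBF2 and LSS. The other 6 genes together summed to 245 and 375 FPKM in the control-labelled libraries and to 195 and 113 FPKM in the KD-labelled libraries, with FDFT1 the largest part in each library.

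A filter of a mean of at least 1 FPKM left 5 of the 7 genes to compare with the whole table, and STARD4 passed it through its KD-labelled values alone. The fit over all genes (limma on log2(FPKM + 1), Benjamini-Hochberg adjusted p under 0.05) called 6.57% of the 9850 genes tested, 5.11% as higher. The count among these 5 was 1, STARD4, which was chosen on this contrast, so its call is no test. The groups did not overlap for STARD4 in the higher direction, nor for HMGCS1 and FDFT1 in the lower. Over all tested genes 60.5% had no overlap, 24.7% as higher and 35.8% as lower. Nothing is read from these counts for genes that were chosen on this contrast. The median difference over all tested genes was -0.13 in log2(FPKM + 1), with a 5th percentile of -1.15 and a 95th of 1.97, and STARD4 ranked 20 from the highest. HMGCS1 lay just below that 5th percentile and FDFT1 just above it.

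Reads of 3 of the genes were divided differently between transcript rows from library to library. For FDFT1 the curated RefSeq transcript held 17.4% and 77.6% of the gene's FPKM in control-labelled libraries 1 and 2 and 85.6% and 14.7% in KD-labelled libraries 1 and 2. The larger row was therefore the predicted transcript in control-labelled library 1 and KD-labelled library 2 and the curated transcript in the other libraries. HMGCS1 had 2 predicted transcripts, and 1 of them held 100% in both control-labelled libraries and 99.6% in KD-labelled library 1, but was listed at 0 in KD-labelled library 2, where the other held all 3.36 FPKM. For SQLE the curated transcript was listed at 0 in 3 libraries and held 77.0% in KD-labelled library 1. The larger row differed between the KD-labelled libraries in all 3 genes. Single rows would give HMGCS1 differences of 1.08 or -2.29 and SQLE differences of 1.32 or -1.32 in log2(FPKM + 1), so sums over rows are used.

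**Figure D2:**
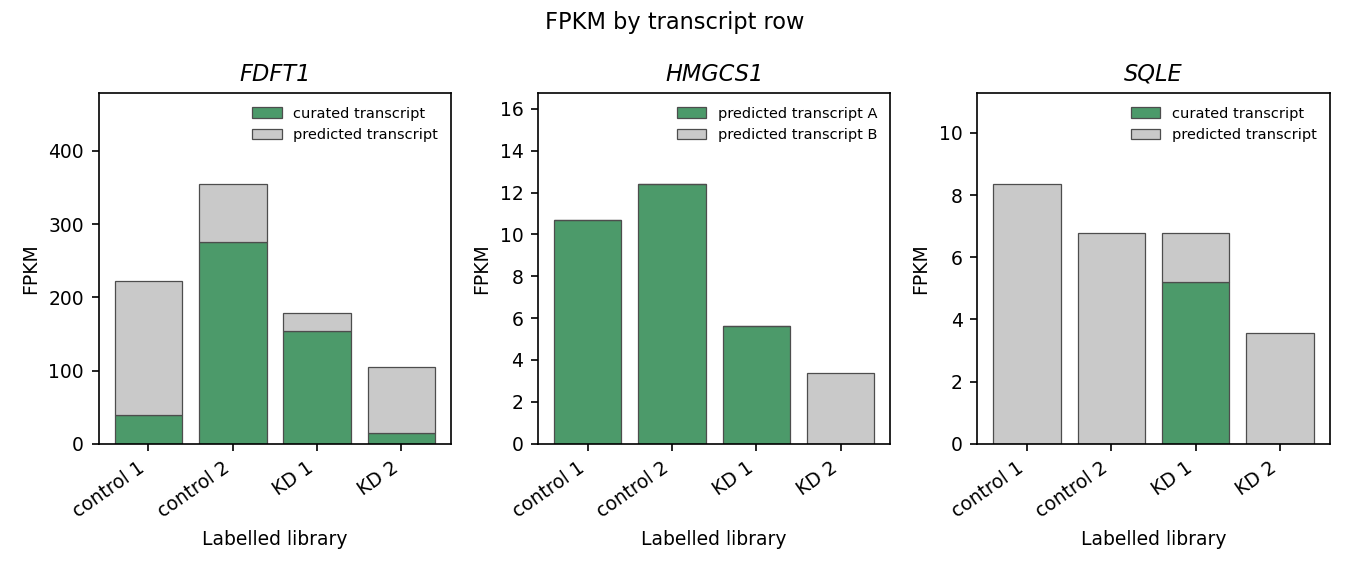
FPKM of each transcript row, stacked to the gene's sum, for FDFT1, HMGCS1 and SQLE in the 4 libraries. The row that holds most of the FPKM changes between libraries of the same group, from 17.4% to 77.6% for the curated FDFT1 transcript in the control-labelled libraries.

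The other genes of cholesterol synthesis gave no call in either direction. Of 19 genes listed by function, 18 had a row and 9 were tested, with 0 higher and 0 lower (limma, Benjamini-Hochberg adjusted, lowest adjusted p = 0.140). At an unadjusted p under 0.05 limma had 0 higher and 1 lower, beside 1378 higher and 1371 lower among all 9850 genes tested. Their median difference was -0.18 in log2(FPKM + 1), beside -0.13 over all tested genes, and 4 were positive and 5 negative. Adjusted calls over all tested genes were 5.11% higher and 1.46% lower. A list this short can hold none at that share, so nothing is read from the 0 counts here or in the lists below. MSMO1, a methyl oxidase that acts after lanosterol, stood at 225 and 173 FPKM in the control-labelled libraries and 234 and 198 FPKM in the KD-labelled libraries. Its groups interleaved (difference 0.12, SE 0.28). GGPS1, which makes the branch product geranylgeranyl diphosphate, stood at 90.8 and 100.1 FPKM in the control-labelled libraries and 53.4 and 60.1 FPKM in the KD-labelled libraries. It was the gene with the unadjusted call, and its groups did not overlap (difference -0.74, SE 0.26). HSD17B7, a reductase of the same late steps as MSMO1, stood at 89.4 and 78.4 FPKM and then at 63.8 and 56.7 FPKM in the same order of groups (difference -0.47, SE 0.27, limma with Benjamini-Hochberg adjusted p = 0.2996).

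Along the pathway the levels were uneven in all 4 libraries. FDFT1, MSMO1, HSD17B7 and EBP, a sterol isomerase, lay at 25.1 FPKM or more in each library. Between them, CYP51A1, the lanosterol demethylase, lay at 10.8 to 17.9 FPKM and SQLE at 3.58 to 8.34 FPKM. DHCR7, the reductase of the last ring step, was listed at 0 in each library. The ribosomal protein gene RPL3, which every cell uses, was also listed at 0 in 3 libraries. Whether a value of 0 is an absent transcript or a failed estimate was not tested. DHCR7, EBP and CYP51A1 are named for their place in the pathway after their values were seen.

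**Figure D3:**
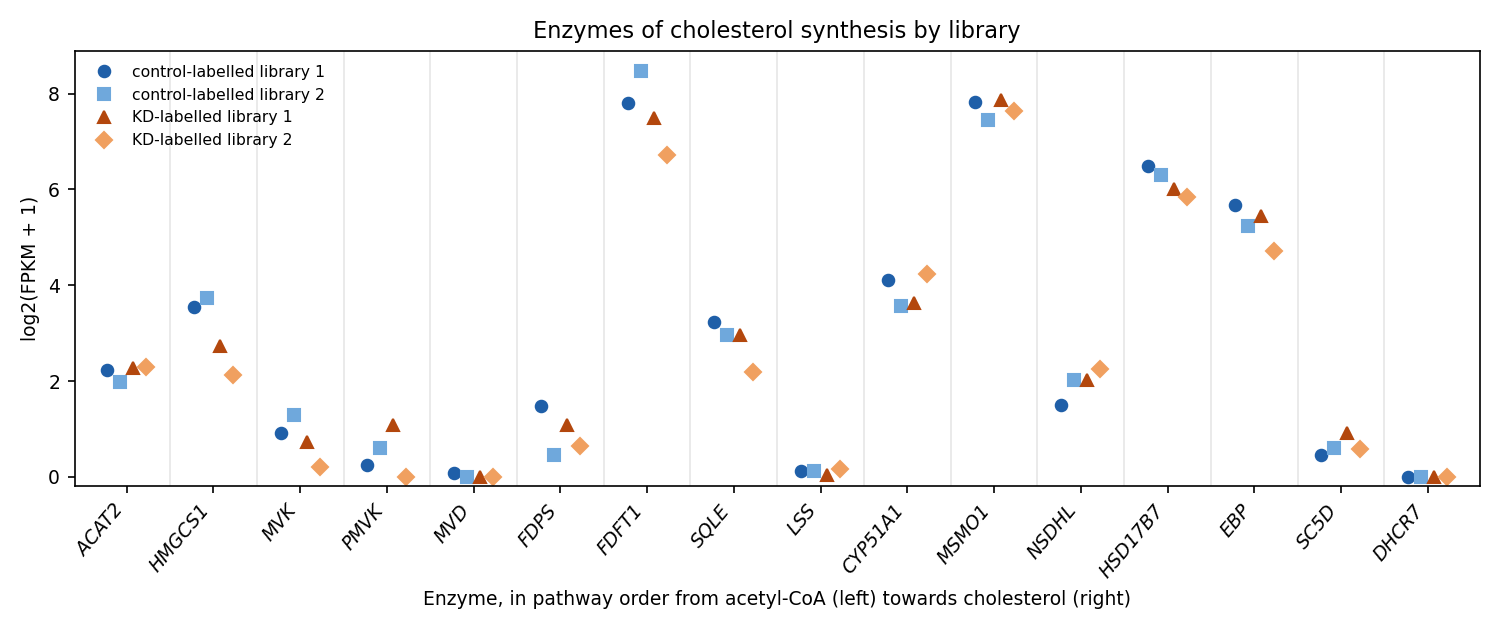
Level of 16 enzymes of cholesterol synthesis in each library as log2(FPKM + 1), in pathway order from acetyl-CoA on the left towards cholesterol on the right. FDFT1, MSMO1, HSD17B7 and EBP are high in all 4 libraries, MVD, LSS and DHCR7 are near 0, and no enzyme has groups as far apart as those of STARD4.

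The machinery that senses sterols gave no call in either direction in this fit. Of 21 genes, 20 had a row and 16 were tested, with 0 higher and 0 lower (limma, Benjamini-Hochberg adjusted, lowest adjusted p = 0.0615) and 1 higher and 2 lower at an unadjusted p under 0.05, beside 1378 and 1371 of all 9850 tested. The median was -0.17 in log2(FPKM + 1). INSIG2, the paralog of INSIG1, was far more abundant than INSIG1 per length, at 86.9 and 77.3 FPKM in the control-labelled libraries and 80.4 and 73.4 FPKM in the KD-labelled libraries. Like INSIG1, it overlapped between the groups (difference -0.09, SE 0.26). SREBF1, the gene of the SREBP that favours fatty acid synthesis, was listed at 0 in 3 libraries, and SCAP stood at 0.156 to 0.359 FPKM.

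Subunits of NF-Y, a factor that binds beside SREBP at many sterol genes, had differences of either sign, with no call. NFYB stood at 23.2 and 20.3 FPKM in the control-labelled libraries and 53.9 and 33.5 FPKM in the KD-labelled libraries (difference 0.94, SE 0.33, limma with Benjamini-Hochberg adjusted p = 0.137). NFYA and NFYC, named after their values were seen, had differences of 1.24 (SE 0.56) and -0.63 (SE 0.37), and NFYA stood at 30.9 FPKM in KD-labelled library 1 against 9.08 FPKM in KD-labelled library 2. RNF139, a sterol-sensing ubiquitin ligase of the endoplasmic reticulum, overlapped between the groups, at 29.9 and 24.3 FPKM and then 26.7 and 38.2 FPKM. NR1H2, the oxysterol receptor LXR beta, stood at 11.4 and 11.5 FPKM in the control-labelled libraries and 4.24 and 4.79 FPKM in the KD-labelled libraries (difference -1.18, SE 0.27). It missed the threshold (limma with Benjamini-Hochberg adjusted p = 0.0615) and was past it with deposited TPM (a length-corrected level that sums alike in every library, adjusted p = 0.0480). NR1H2 was chosen for mention after its values were seen.

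Genes that take up, move and store sterols also gave no call. Of 24 genes, 21 had a row and 11 were tested, with 0 higher and 0 lower (limma, Benjamini-Hochberg adjusted, lowest adjusted p = 0.0954) and 0 higher and 4 lower at an unadjusted p under 0.05, beside 1378 and 1371 of all 9850 tested. The median was -0.09 in log2(FPKM + 1), and it was 0.05 after median-ratio scaling. OSBPL9, an oxysterol-binding-protein relative, stood at 55.7 and 75.2 FPKM in the control-labelled libraries and 35.9 and 42.3 FPKM in the KD-labelled libraries (difference -0.72, SE 0.29). Its groups did not overlap. The lysosomal lipase LIPA interleaved, at 11.4 and 13.96 FPKM and then 10.05 and 13.8 FPKM, and the sterol carrier SCP2 stood at 5.16 and 6.59 FPKM and then 8.80 and 8.07 FPKM (difference 0.46, SE 0.28).

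Members of the START domain family carry lipids in a pocket. Among the other genes listed with this family, only STARD3NL, a relative without the domain, exceeded 2.8 FPKM in any library. Of 14 genes, 13 had a row and 2 were tested, with 0 higher and 0 lower (limma, Benjamini-Hochberg adjusted) and 0 and 1 at an unadjusted p under 0.05, beside the same 1378 and 1371 of 9850. The 1 was STARD3NL, so among the listed genes with the domain only CERT1 was tested. STARD3NL, which resembles STARD3 but lacks the START domain itself, stood at 249 and 234 FPKM in the control-labelled libraries and 113 and 125 FPKM in the KD-labelled libraries. Its groups did not overlap, in the direction opposite to STARD4 (difference -1.02, SE 0.26, limma with Benjamini-Hochberg adjusted p = 0.0761). The ceramide carrier CERT1 interleaved, at 2.77 and 1.76 FPKM and then 2.31 and 2.56 FPKM. The other 11 reached at most 1.23 FPKM in a library, for STARD7, and STAR, the cholesterol carrier of steroid-making cells, reached 0.262 FPKM.

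**Figure D4:**
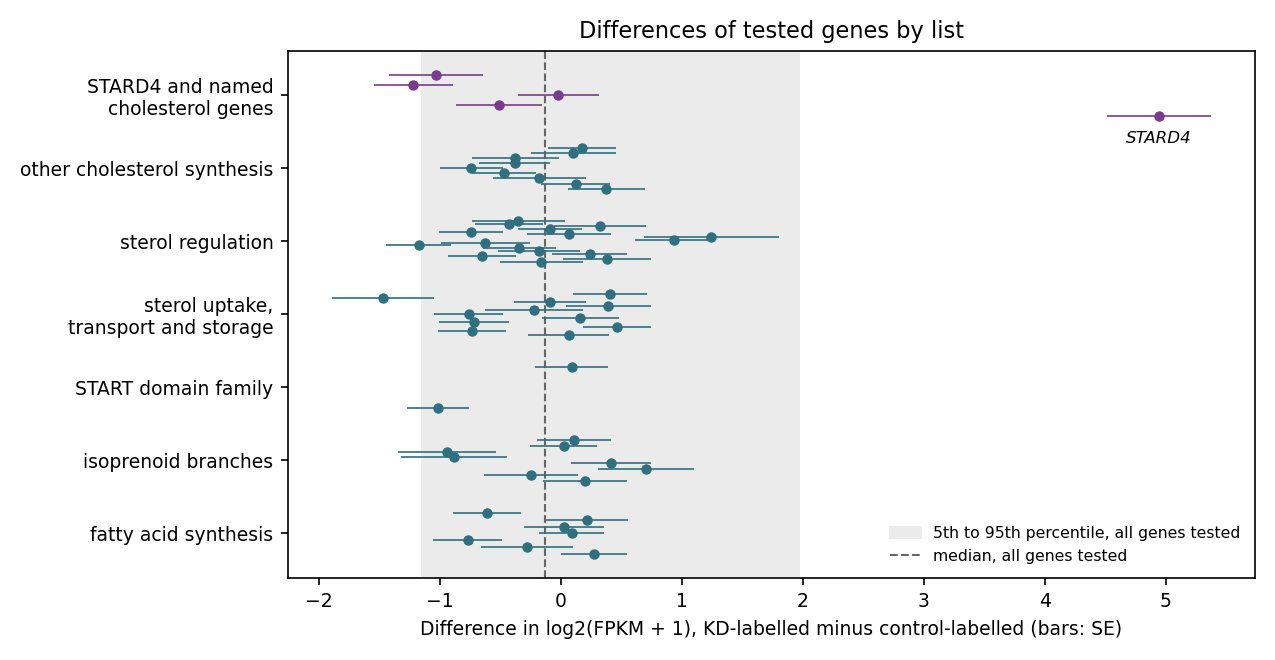
Difference in log2(FPKM + 1), KD-labelled minus control-labelled, with its SE, for each tested gene of 7 lists. The grey band runs from the 5th to the 95th percentile of all 9850 genes tested (-1.15 to 1.97). STARD4 lies at 4.95, and the other points lie between -1.47 and 1.24.

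The profile of STARD4 over the 4 libraries was set beside those of other genes. Its own values chose it, so the distances are a description with no test. Likeness was measured as the Euclidean distance between log2(FPKM + 1) profiles centred on their means, over 9849 other tested genes. The 4 cholesterol genes tested lay at distances of 5.03 (INSIG1) to 6.18 (HMGCS1), at ranks 4103 to 9324. A gene with little difference between groups lies far from STARD4 by construction, so nothing particular to cholesterol genes is read from these ranks. The 5 nearest genes, at distances of 0.37 to 0.59, carry only numbered locus names. The nearest, LOC110262272, was listed at 0 and stood at 1.13 FPKM in the control-labelled libraries, and stood at 56.0 and 34.8 FPKM in the KD-labelled libraries. The nearest with a gene symbol, a choice made after the values were seen, was CRABP2, a retinoic acid carrier, at rank 6. It stood at 0.230 and 0.499 FPKM in the control-labelled libraries and 47.2 and 43.5 FPKM in the KD-labelled libraries. The splicing subunit SF3B5 and the proteasome lid subunit SEM1 followed at ranks 7 and 8, and the homeobox gene ARGFX and the fatty acid binding protein FABP5 at ranks 12 and 14. Like STARD4, LOC110262272, LOC100626211 (rank 5), CRABP2 and ARGFX passed the filter through their KD-labelled values alone.

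Markers of cells that make steroids or surround the oocyte were uneven in level, and 5 of the 18 with a row passed the filter. CYP19A1 (aromatase) reached 0.437 FPKM, HSD3B1 0.108 and the gonadotropin receptors FSHR and LHCGR 0.0592 and 0.0684, while AMH and KRT18 were listed at 0 in each library. INHBA or FST was the highest member of the marker list in each library, and the sum of the list interleaved between the groups. INHBA stood at 7.87 and 6.28 FPKM in the control-labelled libraries and 5.80 and 4.29 FPKM in the KD-labelled libraries. In the same order FST stood at 9.83 and 3.40 FPKM and then 5.48 and 2.96 FPKM. Single members stood apart, with TNFAIP6 at 4.32 FPKM in KD-labelled library 1 and DCN at 3.67 FPKM in KD-labelled library 2. VIM, an intermediate filament gene that like these was named after its values were seen, was higher in both KD-labelled libraries, at 2.81 and 0.556 FPKM beside 0.0403 and 0.325 FPKM in the control-labelled libraries, and its part in the results was not tested. The 5 of 8 blood cell and sperm markers with a row summed to 0.0487 and 0.414 FPKM in the control-labelled libraries and 1.79 and 0.476 FPKM in the KD-labelled libraries. The part of the mitochondrial share and of the oocyte transcripts in these results was not tested. FPKM rescaled to transcripts of nuclear genes gave a STARD4 difference of 4.92. That rescaling multiplies all genes of a library by the same factor, so it is no test of that part.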

How the data were processed

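RNA-seq of 4 libraries was taken from 1 deposited table with coverage, FPKM and TPM per transcript and library, not pooled, per the file headers. Deposited coverage is a signal, the mean read depth per base, unscaled. Deposited FPKM was scaled by the authors to the length of each transcript and to the library, and deposited TPM to a fixed library sum. The submitters' processing notes name StringTie 2.1.7, Bowtie2 2.3.5, cutadapt and the build Sscrofa11.1, while what each tool did is not given in the sources used here. The table gives no counts, so the depth in reads is unknown, and a count test foreseen for counts was replaced by the one planned for FPKM.

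Rows were named by transcript accession through RefSeq genes of Sscrofa11.1 (32816 rows), by another version of the accession (4), by a symbol given as ID (2305) or by the file (270), and 4 older symbols were updated. FPKM was summed per gene. The rows of the 7 genes were the same by name and by accession. The 9850 genes averaging 1 FPKM or more entered a fit in limma 3.58.1 (R 4.3.3), eBayes with trend, on log2(FPKM + 1), two-sided, Benjamini-Hochberg threshold 0.05, with 2 residual degrees of freedom. The fit was tested on simulated data. An exact permutation test of 2 against 2 libraries cannot go below p = 0.333 and was not used.

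The genes and lists were chosen with earlier results of these data known. Named genes include the set itself, genes of the 6 pathway lists past the threshold (there were none), the 3 tested genes of each list with the highest mean FPKM, some of the 5 most like STARD4, and those said to be chosen after their values were seen. Markers, neighbours of STARD4, RPL3 and further genes of the lists are named besides these. The alternatives were another pseudocount, filters, scalings, transcript rows, file names, a replicate block and each library left out. Reads shared with paralogs or processed copies were not separable. Some genes of these lists are not reported here.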

Additional observations from a re-analysis of the deposited data

How the results depend on the processing

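STARD4 was higher in the KD-labelled libraries under each of 11 settings, by 4.47 to 6.77 on the log2 scale, with the highest value at a pseudocount of 0.1. HMGCS1 (-1.56 to -0.92), FDFT1 (-1.42 to -0.65) and SQLE (-0.90 to -0.13) were lower in each of the 11, while INSIG1, SREBF2 and LSS took either sign. The 11 include the main fit, and for these genes file names and the replicate block repeat its value by construction. The groups of STARD4, HMGCS1 and FDFT1 do not overlap, so leaving out a library or changing the pseudocount cannot turn their sign. These genes were chosen on this contrast, and their constant sign over the settings is a description with no test. Single transcript rows are not among the 11. By row, HMGCS1 took 1.08 or -2.29, SQLE 1.32 or -1.32 and FDFT1 -1.06 or -1.31. The cholesterol synthesis and uptake lists had 0 calls in either direction under every setting fitted, and the regulation list had 0 except with TPM, where 1 gene (NR1H2) was lower. The median over all tested genes went from -0.13 to -0.01 with median-ratio scaling and to -0.39 with TPM. The number of calls over all genes, 503 higher and 144 lower (limma), moved more. It was 312 and 62 with a pseudocount of 0.1, 0 and 0 with no filter (1880 and 1925 at an unadjusted p under 0.05), 320 higher with a minimum mean of 5 FPKM, 78 lower with median-ratio scaling, 268 lower with TPM (452 higher) and 70 and 34 with transcript rows. Leaving out each library in turn gave 0 to 479 higher and 0 to 47 lower, with 0 in both directions without KD-labelled library 1 (978 and 811 unadjusted) or without KD-labelled library 2 (1413 and 1261 unadjusted), and 141 and 11 without control-labelled library 1. The remaining library of a group was then assumed to vary like the other group. With the replicate number as a block there were 125 higher and 8 lower. The labels do not say that a number pairs libraries, and deviations of same-numbered libraries correlated at r = -0.143 over 9850 genes, which are not independent. The rescaling to nuclear transcripts was chosen after seeing the data and gave 462 higher and 157 lower. The cause of these shifts was not tested. With 2 libraries per group, lists of 2 to 16 tested genes without a call do not show that levels were equal.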

Other observations

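Genes of the isoprenoid branches and of fatty acid synthesis, which draw on the same precursors or on SREBP-1, gave no call either. All 8 genes of the isoprenoid branch list were tested, with 0 higher and 0 lower (limma, Benjamini-Hochberg adjusted, lowest adjusted p = 0.198) and 0 and 0 at an unadjusted p under 0.05, beside 1378 and 1371 of all 9850 tested. GGPS1, which also makes a branch product, was counted with the cholesterol synthesis genes, where it held the unadjusted call. NUS1, a subunit of the enzyme that makes dolichol precursors, stood at 10.3 and 11.2 FPKM in the control-labelled libraries and 11.3 and 19.0 FPKM in the KD-labelled libraries. In the same order COQ2, of coenzyme Q synthesis, stood at 7.31 and 4.91 FPKM and then 6.92 and 6.18 FPKM, and DHDDS, the partner of NUS1, at 4.94 and 4.37 FPKM and then 5.22 and 4.28 FPKM. Of 13 fatty acid synthesis genes 7 were tested, with 0 higher and 0 lower (limma, Benjamini-Hochberg adjusted, lowest adjusted p = 0.1504) and 0 and 1 at an unadjusted p under 0.05. Nothing is read from 0 calls in these short lists, since 5.11% of all tested genes were called higher and 1.46% lower. The elongase ELOVL6 stood at 93.2 and 75.2 FPKM in the control-labelled libraries and 54.1 and 43.8 FPKM in the KD-labelled libraries (difference -0.77, SE 0.28). The malic enzyme ME1 stood at 14.05 and 15.3 FPKM and then 8.33 and 16.9 FPKM, and ELOVL5 at 13.0 and 12.7 FPKM and then 12.8 and 14.7 FPKM.

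The genes beside STARD4 on chromosome 2 were taken by position after its values were seen. CAMK4, a calmodulin-dependent kinase that ends 985 bases from STARD4, stood at 0.3997 and 0.347 FPKM in the control-labelled libraries and 1.77 and 0.482 FPKM in the KD-labelled libraries, below the filter. Its groups did not overlap, but KD-labelled library 2 lay close to control-labelled library 1, at levels near the floor. On the other side MCC, at 29209 bases, stood at 0.149 to 0.934 FPKM. WDR36, beyond CAMK4, stood at 7.72 and 9.82 FPKM and then 17.4 and 11.7 FPKM, also with no overlap (difference 0.65, limma with Benjamini-Hochberg adjusted p = 0.243). Over all tested genes 24.7% had no overlap in the higher direction, so nothing about the locus is read from CAMK4 or WDR36. DCP2, an mRNA decapping enzyme beyond MCC, had a difference of -0.46 (limma with Benjamini-Hochberg adjusted p = 0.396). TSLP and REEP5, the outermost of the 3 neighbours on each side, had values of 28.8 to 63.5 FPKM and 0 to 0.112 FPKM.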
